A study of Mus musculus with 12 samples.

Results

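The genes described here encode the phase II conjugation enzymes of the mouse, which are the UDP-glucuronosyltransferases (UGT), the glutathione S-transferases (GST) with their membrane-bound relatives (MGST), and the cytosolic sulfotransferases (SULT). They were all genes on a probe set with exactly 1 annotated symbol that starts with Ugt1, Ugt2, Ugt3, Gsta, Gstm, Gstp, Gstt, Gstk, Gsto, Gstz, Mgst or Sult, with the probe set of the highest mean over all arrays standing for a gene. This gave 34 genes on 34 of the 23332 probe sets, among 14860 genes with a single-symbol probe set, with 4 UGT2, 17 soluble GST, 2 MGST and 11 SULT genes. RefSeq lists 67 protein-coding genes of these families, of which 19 were annotated only on probe sets shared by several genes and 14 were on none of the annotated probe sets. No UGT1 or UGT3 gene had a probe set of its own.

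Phase II enzymes attach a polar group to a drug, steroid, bile acid, bilirubin or reactive electrophile, so that the product can leave the hepatocyte in bile or blood. UGTs transfer glucuronic acid from UDP-glucuronic acid, GSTs add glutathione, and SULTs transfer sulfate from PAPS. In rodent liver, ligands of the aryl hydrocarbon receptor (AhR) are known to induce some UGT1 and GST genes, in part through the receptor itself and in part through the antioxidant response factor NRF2 (Nfe2l2), and several SULT genes are known for differing between the sexes.

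Liver RNA was measured in 12 samples from 8 week old mice of a mixed C57BL/6;129Sv background, 1 exon array per sample. The groups were Tiparp-/- mice given the dioxin TCDD intraperitoneally at 30 µg/kg (KO TCDD), Tiparp-/- mice given corn oil (KO corn oil), Tiparp+/+ mice given the same TCDD dose (WT TCDD) and Tiparp+/+ mice given corn oil (WT corn oil), with 3 arrays in each. TCDD is a potent and persistent AhR ligand, and Tiparp is an AhR-induced mono-ADP-ribosyltransferase known to repress the receptor. The study asked how loss of Tiparp alters the response of the liver to dioxin. The labels call the samples biological replicates without naming animals, and p-values measure the spread between these samples. The labels state neither sex, nor the time from dose to collection, nor how the Tiparp allele was made. All values are log2 expression values, changes are differences of log2 values with their standard error (SE) from the fit, and a gene was called where limma's p, adjusted over all 23332 probe sets by the Benjamini-Hochberg method, was below 0.05. Levels of different genes were not set against each other, since they come from different probe sets.

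Tiparp, the targeted gene, was low on the KO arrays under TCDD, while its difference under corn oil was not called. It read 6.82, 6.70 and 6.91 on the KO TCDD arrays, against 9.91, 10.82 and 10.84 on the WT TCDD arrays (difference -3.71 ± 0.34, SE; adjusted p = 0.0021). Under corn oil it read 7.10, 6.20 and 5.58 on the KO arrays, against 7.42, 7.41 and 7.33 on the WT arrays, a difference that was not called (-1.09 ± 0.34, SE; adjusted p = 0.12), with KO replicate 1 close to WT. Cyp1a1, the classical AhR target, read 13.27 to 13.34 on the KO TCDD arrays against 8.07 to 8.84 on the KO corn oil arrays, and 13.19 to 13.32 on the WT TCDD arrays against 5.47 to 6.85 on the WT corn oil arrays. Cyp1a1 rose in both genotypes (4.97 ± 0.32 in KO and 6.92 ± 0.32 in WT, SE). Under TCDD the genotypes differed by 0.07 ± 0.32 (SE), while under corn oil Cyp1a1 was 2.02 ± 0.32 higher in KO (SE; adjusted p = 0.0278). The corn oil call was lost in 3 of 6 fits with 1 array left out (adjusted p up to 0.0807). Cyp1a1 under TCDD lay near the highest value of the data set, so the closeness of the genotypes and the smaller KO change say little. Cyp1a2, another AhR target, lay near that value too and differed by 0.05 ± 0.14 under TCDD (SE). Cyp1b1, also an AhR target, read 8.73, 10.95 and 10.97 on the KO TCDD arrays against 7.20, 7.31 and 7.55 on the WT TCDD arrays. This difference was not called (2.86 ± 0.49, SE; adjusted p = 0.0548). The 3 hepatocyte markers measured of 6 averaged 13.69 to 13.80 on every array, and the Y-linked genes Kdm5d and Eif2s3y read 7.64 to 8.29 and 9.32 to 9.73. These hepatocyte markers also lay near the highest value of the data set, so their closeness says little.

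The KO corn oil arrays stood apart and also differed among themselves, which touches every comparison that uses them. On the main component of variation over all probe sets, KO corn oil replicates 1, 2 and 3 scored 45.8, 36.7 and 17.2, while the other arrays scored between -30.5 and 7.99. Conjugation enzymes varied more than the table as a whole in this group, with a median SD of 0.278 against 0.164 over all probe sets. In the KO TCDD, WT TCDD and WT corn oil groups the members' median SD was 0.135, 0.118 and 0.169, beside 0.14, 0.136 and 0.129 over all probe sets. KO corn oil replicate 3 held the highest value of its group in 23 of 34 members, 14 of them among the 19 GST and MGST genes, where the share over all probe sets was 35.1%. The median deviation of the 34 genes from their own means was -0.21, 0.03 and 0.20 on KO corn oil replicates 1, 2 and 3. WT corn oil replicate 1 was the highest of its group in 22 of 34 members (33.5% over all probe sets). No array was left out of the main fit, and values without KO corn oil replicates 1 and 2 are given for the members and list genes whose calls or values turned on them. Such a fit leaves a lone array in that group, so only the size of a change is given and no call is read from it.

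**Figure D1:**
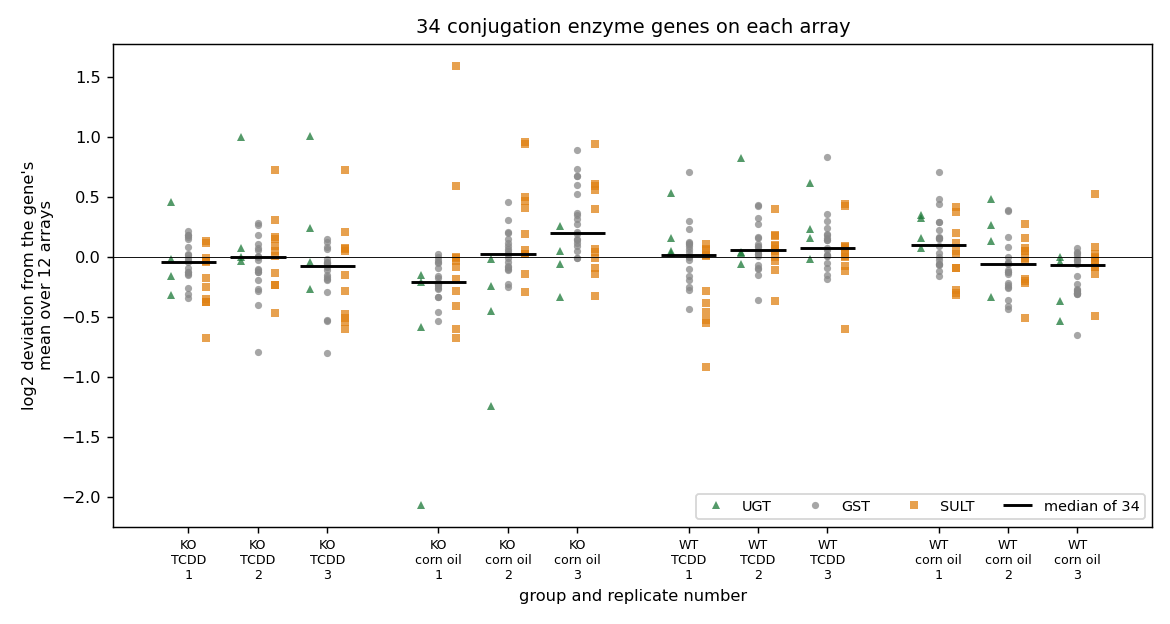
Each point is 1 of the 34 genes on 1 array, plotted as its log2 deviation from that gene's mean over 12 arrays, with the genotype, treatment and replicate number along the x axis and the black bar at the median of the 34. Within the KO corn oil group the median lies at -0.21, 0.03 and 0.20, a wider range than in the other groups, and the lowest point of all is Ugt2b35 on KO corn oil replicate 1.

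Few of the 34 genes were called with TCDD. In KO livers, 2 of 34 were called, with the UDP-glucuronosyltransferase gene Ugt2b35 higher and the phenol sulfotransferase gene Sult1a1 lower. Over the whole table, 5.58% of probe sets were called in this comparison, 2.21% higher and 3.37% lower, so the members' count is near the background. In WT livers 0 of 34 were called by limma, where 0.116% of probe sets were called, and 3 of 34 (Ugt2b35, Gstm1 and Gstt2, all higher) had an unadjusted p below 0.05, where 7.28% of all probe sets did. The median change of the 34 was -0.08 in KO and 0.03 in WT, beside -0.05 and 0.01 over all probe sets. Differences of less than 0.5 were seen in 28 of 34 genes in KO, beside 86.8% of all probe sets, and in 32 of 34 in WT, beside 94.7%. The median absolute difference was 0.22 in KO and 0.108 in WT, beside 0.16 and 0.103 over all probe sets.

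Tests of the difference between the 2 TCDD effects (KO minus WT) called 0 of 34 genes by limma, with 0.159% of all probe sets called. Without adjustment, 3 of 34 passed at 0.05 (Sult1a1, Gstt2 and Gstt3, all with the KO effect below the WT effect), where 14.8% of all probe sets did.

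**Figure D2:**
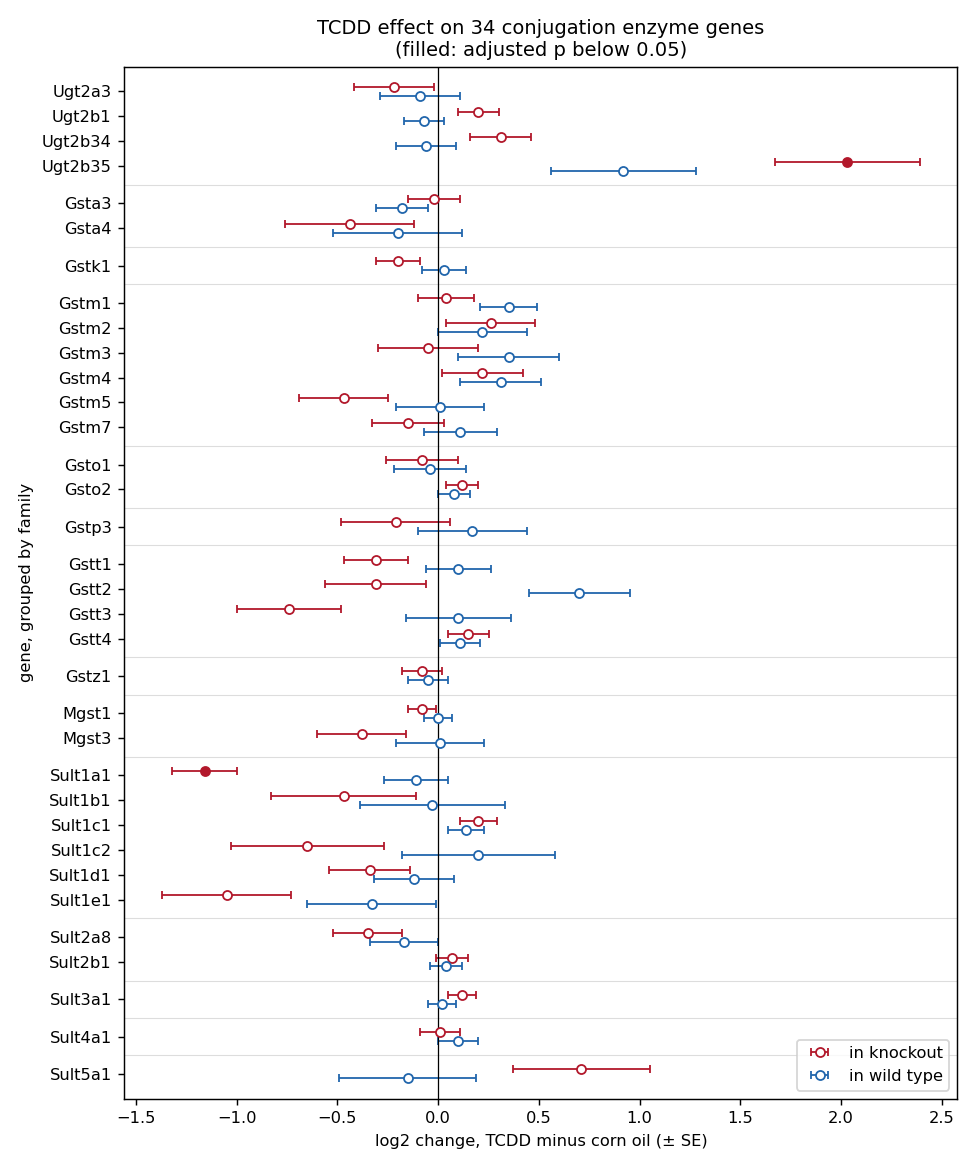
Log2 change (TCDD minus corn oil) with its SE for each of the 34 genes, in KO (red, upper) and WT (blue, lower), ordered by family, with filled points where the adjusted p was below 0.05. Filled points are Ugt2b35 at 2.03 and Sult1a1 at -1.16, both in KO, and most other genes lie within 0.5 of 0 in both genotypes.

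Among the UGT2 genes, whose products glucuronidate steroids, bile acids and drugs, Ugt2b35 moved most. Ugt2b35 (probe set 6932141, chromosome 5) read 10.84, 11.38 and 11.39 in KO TCDD livers, 8.32, 9.14 and 10.05 in KO corn oil livers, 10.92, 11.21 and 11.00 in WT TCDD livers, and 10.46, 10.05 and 9.85 in WT corn oil livers. Every TCDD array lay above every corn oil array of both genotypes, and the KO corn oil arrays were the most spread, with replicate 1 the lowest of all 12. The means were 11.20 ± 0.31 in KO TCDD and 9.17 ± 0.87 in KO corn oil livers (SD, n = 3 each), and 11.04 ± 0.15 in WT TCDD and 10.12 ± 0.31 in WT corn oil livers (SD, n = 3 each). TCDD raised Ugt2b35 by 2.03 ± 0.36 (SE) in KO, or 4.09-fold, with an adjusted p of 0.0126. In WT the change was 0.92 ± 0.36 (SE) and was not called (adjusted p = 0.616). That SE also holds the spread of the KO corn oil arrays. The difference between these effects was 1.11 ± 0.51 (SE; adjusted p = 0.349).

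The size of the Ugt2b35 change in KO depended on its own corn oil arrays. Set against WT corn oil livers, KO TCDD livers were 1.08 ± 0.36 (SE) higher and not called (adjusted p = 0.167), and KO TCDD livers differed from WT TCDD livers by 0.16 ± 0.36 (SE; adjusted p = 0.908). KO corn oil livers were 0.95 below WT corn oil livers (-0.95 ± 0.36, SE; adjusted p = 0.185). Without KO corn oil replicates 1 and 2 the KO change was 1.15, the difference between KO and WT under corn oil -0.07 and the difference between the TCDD effects 0.23. Without KO corn oil replicate 3 the difference under corn oil was -1.39 and was called (adjusted p = 0.0197). The call of the KO change with TCDD was lost without KO TCDD replicate 3 (1.94; adjusted p = 0.0554) and in a fit of the compared groups alone (adjusted p = 0.104).

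The other UGT2 genes were not called in any of the 6 comparisons. Ugt2b1, the UGT2 member with the highest mean, read 12.68, 12.91 and 13.08 in KO TCDD livers, 12.69, 12.60 and 12.78 in KO corn oil livers, 12.87, 12.87 and 12.82 in WT TCDD livers, and 13.00, 12.97 and 12.80 in WT corn oil livers. Its TCDD change was 0.20 ± 0.10 in KO and -0.07 ± 0.10 in WT (SE). Ugt2b34, singled out after its values were seen, read 12.45, 12.47 and 12.43 in KO TCDD livers, 11.89, 12.02 and 12.52 in KO corn oil livers, 12.63, 12.51 and 12.70 in WT TCDD livers, and 12.82, 12.74 and 12.47 in WT corn oil livers. Only KO corn oil replicates 1 and 2 were low, while replicate 3 lay among the arrays of the other groups. KO minus WT under corn oil was -0.53 ± 0.15 for Ugt2b34 (SE; adjusted p = 0.0962) and was called without KO corn oil replicate 3 (-0.72; adjusted p = 0.00874). It was -0.16 without KO corn oil replicates 1 and 2. For Ugt2a3 the TCDD difference was -0.22 ± 0.20 in KO and -0.09 ± 0.20 in WT (SE). All 4 UGT2 genes were lower in KO than in WT corn oil livers by point estimate, from -0.95 to -0.13, with 0 called.

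Genes of the UGT1 locus are built from different leading exons joined to a shared set of downstream exons, and the array had 1 probe set annotated to 8 of them, so it is outside the 34 and no single UGT1 gene could be read. This probe set (6751362) read 11.91, 11.74 and 11.64 in KO TCDD livers, 10.14, 10.79 and 10.81 in KO corn oil livers, 11.35, 11.32 and 11.41 in WT TCDD livers, and 10.91, 10.39 and 9.90 in WT corn oil livers. In both genotypes all TCDD arrays lay above all corn oil arrays. The UGT1 locus signal was 1.18 ± 0.24 higher with TCDD in KO (SE; 2.27-fold; adjusted p = 0.0224) and 0.96 ± 0.24 higher in WT, where it was not called (SE; 1.95-fold; adjusted p = 0.322). The 2 effects differed by 0.22 ± 0.34 (SE; adjusted p = 0.825). KO TCDD livers were above WT corn oil livers by 1.36 ± 0.24 (SE; 2.57-fold; adjusted p = 0.0189), and above WT TCDD livers by 0.40 ± 0.24 (SE; adjusted p = 0.554, not called). The KO call was lost without KO TCDD replicate 1 or 3 or KO corn oil replicate 1 (adjusted p up to 0.0765), and without KO corn oil replicates 1 and 2 the change was 0.95. The call against WT corn oil was lost without any single KO TCDD array or WT corn oil replicate 2 (adjusted p up to 0.0733).

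Of the other 9 shared probe sets with a symbol of these families, 1 was called in any comparison. It is annotated to 4 UGT2B genes (probe set 6939703) and read 7.20, 6.79 and 6.95 in KO corn oil livers, against 7.43, 7.79 and 7.51 in WT corn oil livers. All KO corn oil arrays were below all WT corn oil arrays (-0.60 ± 0.12, SE; adjusted p = 0.0451). This call was lost with any single array left out other than KO corn oil replicate 3 (adjusted p up to 0.168). The difference was -0.63 without KO corn oil replicates 1 and 2. Probe sets 6939704 and 6939717, annotated to some of the same genes, differed by -0.30 ± 0.18 and -0.22 ± 0.27 under corn oil (SE). Their arrays overlapped and they were not called (adjusted p = 0.388 and 0.716). A probe set shared by 2 pi-class GST genes (6870969) averaged 14.12 ± 0.05 in KO TCDD, 13.94 ± 0.16 in KO corn oil, 14.10 ± 0.02 in WT TCDD and 14.02 ± 0.04 in WT corn oil livers (SD, n = 3 each). These values reached the highest of the whole data set, so their closeness says little about a response. Another probe set of the same 2 genes (6765276) had TCDD changes of 0.53 ± 0.26 in KO and 0.12 ± 0.26 in WT (SE), not called. Its KO corn oil arrays read 8.37, 7.93 and 9.14 and overlapped its KO TCDD arrays at 9.12, 8.77 and 9.13. The probe set shared by both UGT3 genes had TCDD differences of -0.30 in KO and 0.00 in WT, not called.

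GST and MGST genes, 19 in all, had 0 members called by limma in any of the 6 comparisons. Their TCDD changes ran from -0.74 to 0.26 in KO, with 14 of 19 below 0 and a median of -0.08, and from -0.20 to 0.70 in WT, with 14 of 19 above 0 and a median of 0.10. By unadjusted p, 1 of 19 passed 0.05 in KO (Gstt3), where 22.1% of all probe sets did, and 2 of 19 in WT (Gstm1 and Gstt2), where 7.28% did. The median GST deviation was 0.28 on KO corn oil replicate 3 and 0.15 on WT corn oil replicate 1, and the part of these arrays in the directions was not tested.

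The alpha class conjugates reactive aldehydes and epoxides. Gsta3, known in mouse for detoxifying the aflatoxin epoxide, read 12.93, 12.80 and 12.89 in KO TCDD livers, 12.68, 12.82 and 13.18 in KO corn oil livers, 12.75, 12.84 and 12.92 in WT TCDD livers, and 13.13, 13.07 and 12.85 in WT corn oil livers. Its TCDD change was -0.02 ± 0.13 in KO and -0.18 ± 0.13 in WT (SE). Gsta4, which conjugates the lipid peroxidation product 4-hydroxynonenal, read 9.75, 8.78 and 9.04 in KO TCDD livers, 9.30, 9.88 and 9.71 in KO corn oil livers, 9.87, 9.21 and 9.81 in WT TCDD livers, and 10.28, 9.95 and 9.27 in WT corn oil livers. The groups overlapped for both genes, and the Gsta4 differences of -0.44 ± 0.32 in KO and -0.20 ± 0.32 in WT (SE) were not called (adjusted p = 0.468 and 0.951). The AhR- and NRF2-responsive genes Gsta1 and Gsta2 had no annotated probe set here and were not analysed.

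Mu-class genes, 6 members all on chromosome 3, had point estimates above 0 with TCDD in 6 of 6 in WT and in 3 of 6 in KO, with 0 called. Gstm1 read 8.91, 8.57 and 8.72 in KO TCDD livers, 8.54, 8.72 and 8.81 in KO corn oil livers, 8.99, 9.19 and 8.77 in WT TCDD livers, and 8.69, 8.76 and 8.46 in WT corn oil livers. In WT the TCDD arrays of Gstm1 lay just above the corn oil arrays (0.35 ± 0.14, SE; adjusted p = 0.616), and in KO they overlapped (0.04 ± 0.14, SE). Gstm3 read 9.27, 9.53 and 9.10 in KO TCDD livers, 8.92, 9.14 and 9.98 in KO corn oil livers, 9.29, 9.16 and 9.61 in WT TCDD livers, and 9.19, 8.84 and 8.98 in WT corn oil livers. KO corn oil replicate 3 was the highest of all arrays for Gstm3, and the TCDD change of Gstm3 was -0.05 ± 0.25 in KO and 0.35 ± 0.25 in WT (SE). A probe set shared by Gstm6 and Gstm3 (6908075) had TCDD differences of -0.43 ± 0.22 in KO and 0.22 ± 0.22 in WT (SE), not called. Gstm7, the mu-class member with the highest mean, had a TCDD difference of -0.15 ± 0.18 in KO and 0.11 ± 0.18 in WT (SE). The remaining mu-class genes Gstm2, Gstm4 and Gstm5 had differences of 0.26, 0.22 and -0.47 in KO and of 0.22, 0.31 and 0.01 in WT, none of them called.

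Theta-class genes, 4 members all on chromosome 10, act on small halogenated and sulfate-bearing substrates. Gstt1, the member with the highest mean, read 11.69, 11.76 and 11.49 in KO TCDD livers, 11.73, 11.98 and 12.15 in KO corn oil livers, 11.90, 11.68 and 11.86 in WT TCDD livers, and 12.07, 11.52 and 11.56 in WT corn oil livers. Its differences of -0.31 ± 0.16 in KO and 0.10 ± 0.16 in WT (SE) were not called. Gstt2 and Gstt3, named after their values were seen, had the widest gaps between genotypes under TCDD among the GST genes. For Gstt2 the values were 8.35, 8.59 and 8.16 in KO TCDD livers, against 9.40, 8.70 and 9.52 in WT TCDD livers, so that all KO TCDD arrays were below all WT TCDD arrays. The difference was -0.84 ± 0.25 (SE) with an adjusted p of 0.254 (unadjusted p = 0.00724). For Gstt3 the values were 9.32, 9.05 and 8.65 in KO TCDD livers, against 9.57, 9.50 and 9.64 in WT TCDD livers, also without overlap (-0.56 ± 0.26, SE; adjusted p = 0.435). Over all probe sets 11.7% had their KO TCDD arrays wholly below their WT TCDD arrays, and 6 of 34 members did. Gstt4 was dim, at 4.91 to 5.41 on all arrays.

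No gene of the remaining GST classes was called. Mgst1, the microsomal enzyme of the endoplasmic reticulum and outer mitochondrial membrane, read 13.41, 13.45 and 13.40 in KO TCDD livers, 13.43, 13.54 and 13.54 in KO corn oil livers, 13.35, 13.51 and 13.47 in WT TCDD livers, and 13.45, 13.41 and 13.47 in WT corn oil livers. All 12 arrays of Mgst1 lay within 13.35 to 13.54, and its TCDD change was -0.08 ± 0.07 in KO and 0.00 ± 0.07 in WT (SE). Gstk1, the kappa-class enzyme of mitochondria and peroxisomes, had a TCDD difference of -0.20 ± 0.11 in KO and 0.03 ± 0.11 in WT (SE). Gstz1, which isomerises maleylacetoacetate in tyrosine breakdown, differed by -0.08 ± 0.10 in KO and -0.05 ± 0.10 in WT (SE). Gsto1, an omega-class enzyme with dehydroascorbate reductase activity, differed by -0.08 ± 0.18 in KO and -0.04 ± 0.18 in WT (SE). Gstp3, the pi-class gene with a probe set of its own, differed by -0.21 ± 0.27 in KO and 0.17 ± 0.27 in WT (SE), with KO corn oil replicate 3 at 9.14 and the other 11 arrays at 7.81 to 8.52. Mgst3 and the dim Gsto2 had differences of -0.38 and 0.12 in KO and of 0.01 and 0.08 in WT.

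Sulfotransferase genes included the only member that was called in more than 1 comparison. Sult1a1 (probe set 6971280, chromosome 7), which sulfates phenols and is known for both detoxifying and activating xenobiotics, read 10.90, 10.78 and 10.74 in KO TCDD livers, 11.84, 12.21 and 11.84 in KO corn oil livers, 10.70, 11.14 and 11.34 in WT TCDD livers, and 11.16, 11.03 and 11.33 in WT corn oil livers. The KO corn oil arrays were the highest 3 of all 12, while the other 9 ran from 10.70 to 11.34. The means were 10.81 ± 0.08 in KO TCDD and 11.96 ± 0.21 in KO corn oil livers (SD, n = 3 each), and 11.06 ± 0.33 in WT TCDD and 11.17 ± 0.15 in WT corn oil livers (SD, n = 3 each). With TCDD, Sult1a1 fell by 1.16 in KO (-1.16 ± 0.16, SE; 2.23-fold lower; adjusted p = 0.00449). In WT the change was -0.11 ± 0.16 (SE; adjusted p = 0.946), and the effects differed by -1.04 ± 0.23 (SE; adjusted p = 0.0973). That difference was called where the lowest 50% of probe sets were dropped (adjusted p = 0.0413).

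Between genotypes, Sult1a1 was the member called under corn oil, at 0.79 ± 0.16 higher in KO (SE; 1.73-fold; adjusted p = 0.046). This made 1 of 34 members called, where 1.96% of all probe sets were called and 1.23% of all were called higher. The call was lost in 5 of 6 fits with 1 array left out (adjusted p up to 0.177), the exception being KO corn oil replicate 3. KO TCDD livers were not shown to differ from WT corn oil livers in Sult1a1 (-0.37 ± 0.16, SE; adjusted p = 0.306). Without KO corn oil replicates 1 and 2 the Sult1a1 change with TCDD in KO was -1.03 and the difference between genotypes under corn oil 0.67.

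**Figure D3:**
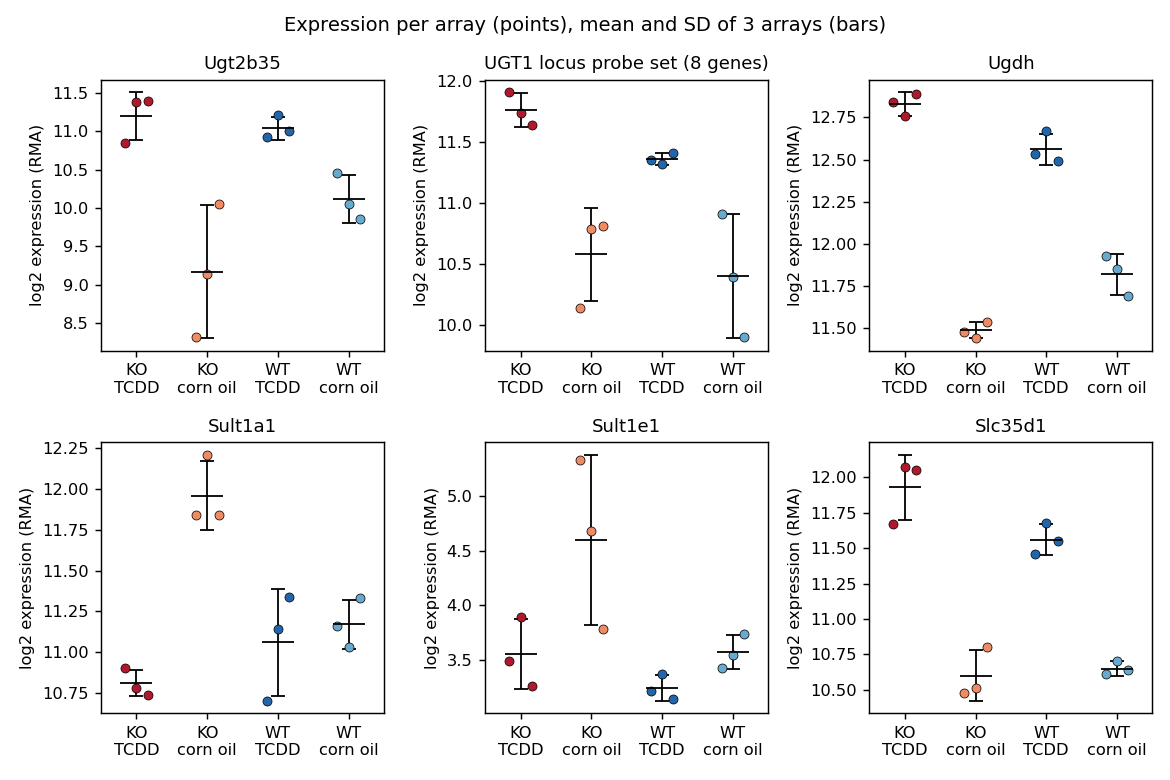
Log2 expression on each array (points) with the mean and SD of 3 arrays (bars) for Ugt2b35, the UGT1 locus probe set, Ugdh, Sult1a1, Sult1e1 and Slc35d1, with groups from left to right KO TCDD, KO corn oil, WT TCDD and WT corn oil and a separate y axis for each gene that does not start at 0. TCDD arrays of Ugt2b35, the UGT1 locus, Ugdh and Slc35d1 lie above the corn oil arrays in both genotypes, while Sult1a1 is set apart by its KO corn oil arrays at 11.84 to 12.21.

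Sult1e1, the estrogen sulfotransferase, is low in adult mouse liver and known to be induced in diabetic and inflamed liver. It read 3.49, 3.89 and 3.26 in KO TCDD livers, 5.33, 4.68 and 3.78 in KO corn oil livers, 3.21, 3.37 and 3.14 in WT TCDD livers, and 3.42, 3.54 and 3.74 in WT corn oil livers. KO corn oil replicates 1 and 2 were above every other array, and these values lie in the dim range of the table, the lowest 25% of probe sets having means below 5.57. Sult1e1 was not called with TCDD in KO (-1.05 ± 0.32, SE; adjusted p = 0.0852) or between genotypes under corn oil (1.03 ± 0.32, SE; adjusted p = 0.115). Without KO corn oil replicate 3 both were called, at -1.46 (adjusted p = 0.00592) and 1.44 (adjusted p = 0.0087). They were -0.23 and 0.21 without KO corn oil replicates 1 and 2.

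The other SULT1 genes were not called. Sult1b1, which sulfates phenols and thyroid hormone, read 7.82, 8.80 and 7.95 in KO TCDD livers, 7.89, 8.99 and 9.10 in KO corn oil livers, 8.03, 8.67 and 8.93 in WT TCDD livers, and 8.69, 8.57 and 8.46 in WT corn oil livers. It varied by over 1 log2 unit within the KO corn oil group, and its differences were -0.47 ± 0.36 in KO and -0.03 ± 0.36 in WT (SE). Sult1d1, known in mouse for sulfating catecholamines, had a TCDD difference of -0.34 ± 0.20 in KO and -0.12 ± 0.20 in WT (SE). For Sult1c2 the difference was -0.65 ± 0.38 in KO and 0.20 ± 0.38 in WT (SE), and for the dim Sult1c1 it was 0.20 ± 0.09 in KO and 0.14 ± 0.09 in WT (SE). In all, 5 of 6 SULT1 point estimates were below 0 with TCDD in KO and 6 of 6 were above 0 between genotypes under corn oil. Both comparisons share the KO corn oil arrays.

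Of the other sulfotransferases, Sult2a8, known in mouse liver for sulfating bile acids, read 11.24, 11.38 and 11.33 in KO TCDD livers, 11.33, 11.67 and 12.01 in KO corn oil livers, 11.63, 11.61 and 11.69 in WT TCDD livers, and 12.03, 11.89 and 11.53 in WT corn oil livers. Its KO TCDD arrays were below all WT arrays, with -0.33 ± 0.17 against WT TCDD (SE; adjusted p = 0.476) and -0.50 ± 0.17 against WT corn oil (SE; adjusted p = 0.167). Sult5a1 read 8.86, 9.45 and 9.45 in KO TCDD livers, 8.32, 8.92 and 8.40 in KO corn oil livers, 7.81, 8.91 and 8.73 in WT TCDD livers, and 8.43, 8.22 and 9.25 in WT corn oil livers. The groups overlapped, and its differences of 0.71 ± 0.34 in KO and -0.15 ± 0.34 in WT (SE) were not called. Sult3a1, an amine sulfotransferase known as female-biased in mouse liver, read 2.25 to 2.51 on all arrays. Sult4a1, known mainly from brain, read 5.60 to 6.00, and Sult2b1, which sulfates cholesterol, 6.07 to 6.31, with TCDD differences of 0.12, 0.01 and 0.07 in KO and 0.02, 0.10 and 0.04 in WT, in the order named. Sult2a1 had no annotated probe set here.

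To show the regulatory sequence next to the genes the results turn on, the promoter windows of Ugt2b35 and Sult1a1 are printed beside that of Cyp1a1, whose TCDD response was the largest of the genes named here. Each window runs from 250 bases before to 50 bases after the annotated start, 5′ to 3′ on the gene's strand, from RefSeq on GRCm38.p6. The windows are chr5:87000610-87000909 (+ strand) for Ugt2b35, chr7:126676369-126676668 (- strand) for Sult1a1 and chr9:57697363-57697662 (+ strand) for Cyp1a1. Capitals mark the AhR core motif GCGTG, the antioxidant response core TGACNNNGC and the HNF1 half-site GTTAAT, searched on both strands, and no printed window held overlapping matches.
Ugt2b35: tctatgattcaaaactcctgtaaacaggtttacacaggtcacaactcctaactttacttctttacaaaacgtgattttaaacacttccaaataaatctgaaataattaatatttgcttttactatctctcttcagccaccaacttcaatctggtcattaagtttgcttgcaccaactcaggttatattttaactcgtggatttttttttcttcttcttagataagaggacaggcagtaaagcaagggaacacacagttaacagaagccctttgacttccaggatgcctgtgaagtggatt
Sult1a1: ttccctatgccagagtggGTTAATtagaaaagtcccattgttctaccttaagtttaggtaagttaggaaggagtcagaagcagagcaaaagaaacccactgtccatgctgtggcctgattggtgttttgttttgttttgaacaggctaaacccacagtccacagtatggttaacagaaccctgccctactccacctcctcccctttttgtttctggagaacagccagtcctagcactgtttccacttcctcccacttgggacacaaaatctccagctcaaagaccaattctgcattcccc
Cyp1a1: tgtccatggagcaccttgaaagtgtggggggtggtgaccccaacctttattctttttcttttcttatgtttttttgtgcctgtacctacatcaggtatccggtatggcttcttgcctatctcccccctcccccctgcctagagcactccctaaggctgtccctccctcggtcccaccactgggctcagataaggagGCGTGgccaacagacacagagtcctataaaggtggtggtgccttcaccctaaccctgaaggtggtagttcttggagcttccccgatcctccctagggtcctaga
The Cyp1a1 window held 1 GCGTG, 54 bases before the start, and the Sult1a1 window 1 GTTAAT, 232 bases before it. The Ugt2b35 window held 0 matches to any of the 3 motifs. Sequence beyond these windows was not searched, and a link between the matches and the TCDD changes was not tested. Windows were at hand for 31 of the 34 genes, and GCGTG was found in those of 7 genes (9 of 41 windows), TGACNNNGC in 4 (Gsta3, Gstm5, Gstm7 and Mgst1) and GTTAAT in 4 (Gsta3, Sult1a1, Sult1d1 and Ugt2a3). Over 32851 windows of this length, 32.4% held GCGTG, 12.4% TGACNNNGC and 7.1% GTTAAT. In the Gstm5 window a TGACNNNGC match overlapped a GCGTG match on the other strand.

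Few of these genes were called between the genotypes. Under TCDD 0 of 34 members were called by limma between KO and WT, where 0.24% of all probe sets were called, and 2 of 34 had an unadjusted p below 0.05 (Gstt2 lower and Sult5a1 higher in KO), where 11.9% of all probe sets did. Between KO TCDD and WT corn oil livers 0 of 34 were called by limma, where 2.28% of all probe sets were called, and 5 of 34 had an unadjusted p below 0.05 (Ugt2b35, Gstt4 and Sult1c1 higher, Sult1a1 and Sult2a8 lower), where 16.2% of all probe sets did. The median of the 34 was -0.09 between KO and WT under TCDD, 0.06 under corn oil and -0.04 between KO TCDD and WT corn oil, beside -0.03, 0.03 and -0.01 over all probe sets.

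**Figure D4:**
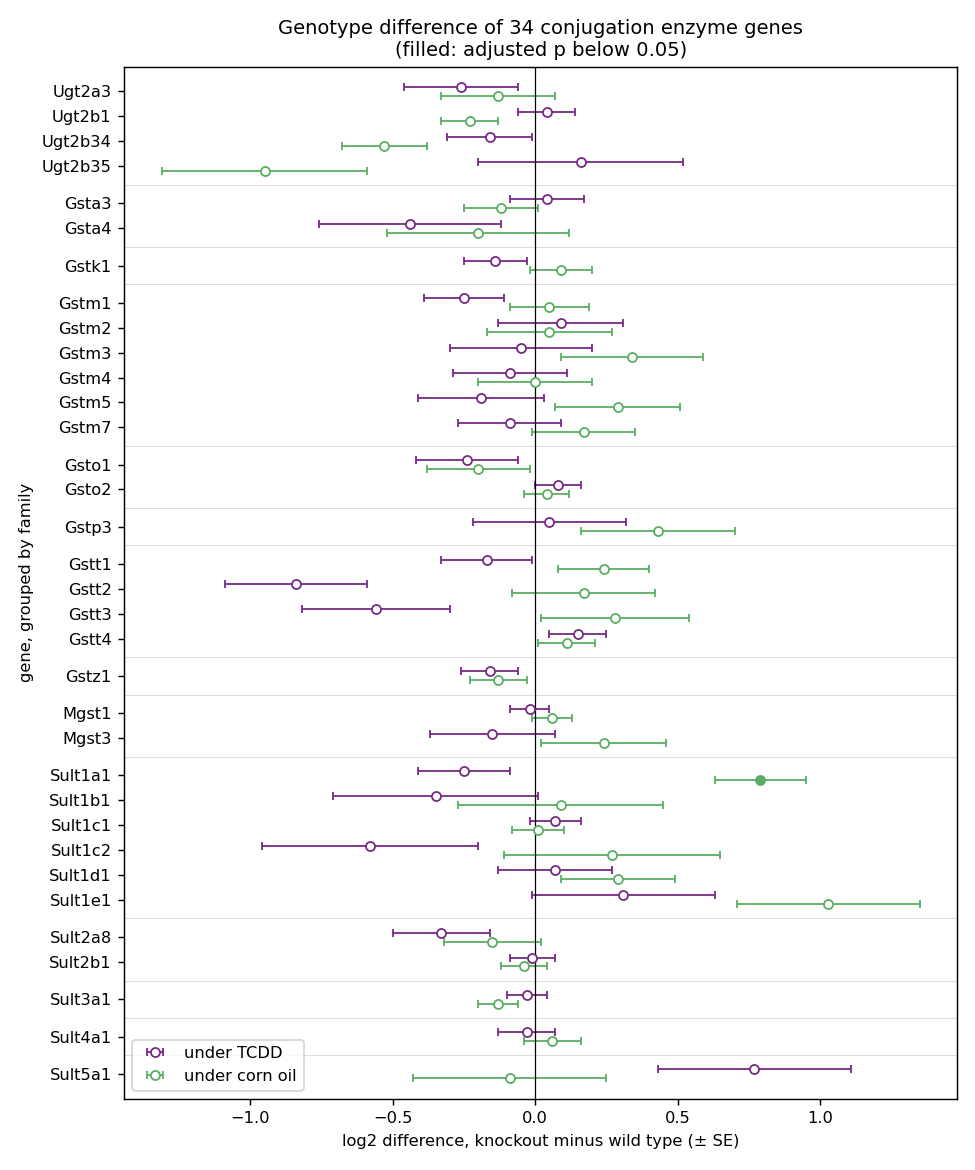
Log2 difference (KO minus WT) with its SE for each of the 34 genes under TCDD (purple, upper) and under corn oil (green, lower), ordered by family, with a filled point where the adjusted p was below 0.05. The filled point is Sult1a1 under corn oil at 0.79, and 30 of 34 genes lie within 0.5 of 0 under each treatment.

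Genes for the supply of UDP-glucuronic acid changed in both genotypes. Of 5 listed genes 3 were measured, and 2 rose with TCDD in KO and in WT. For this and the gene lists below, 2.21% of all probe sets were called higher and 3.37% lower with TCDD in KO. In WT 0.116% were called with TCDD, and between genotypes 1.96% were called under corn oil and 0.24% under TCDD. Ugdh, the UDP-glucose dehydrogenase that makes UDP-glucuronic acid, read 12.84, 12.76 and 12.89 in KO TCDD livers, 11.48, 11.44 and 11.54 in KO corn oil livers, 12.53, 12.67 and 12.49 in WT TCDD livers, and 11.93, 11.85 and 11.69 in WT corn oil livers. TCDD arrays were above all corn oil arrays, and arrays of a group were close together. Ugdh rose by 1.34 ± 0.08 in KO (SE; adjusted p = 6.3e-05) and by 0.74 ± 0.08 in WT (SE; adjusted p = 0.00938), and these effects differed by 0.60 ± 0.12 (SE; adjusted p = 0.0754). The Ugdh call in WT was lost without WT TCDD replicate 2 or 3 or WT corn oil replicate 2 (adjusted p up to 0.0721). Slc35d1, which carries UDP-glucuronic acid into the endoplasmic reticulum where UGTs sit, read 11.67, 12.07 and 12.05 in KO TCDD livers, 10.48, 10.51 and 10.80 in KO corn oil livers, 11.46, 11.68 and 11.55 in WT TCDD livers, and 10.61, 10.70 and 10.64 in WT corn oil livers. It rose by 1.33 ± 0.13 in KO (SE; adjusted p = 0.000442) and by 0.91 ± 0.13 in WT (SE; adjusted p = 0.0259), the WT call being lost with any single array of that comparison left out (adjusted p up to 0.167). Against WT corn oil, KO TCDD livers were higher by 1.01 ± 0.08 in Ugdh and by 1.28 ± 0.13 in Slc35d1 (SE; adjusted p = 0.000249 and 0.00064).

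Glutathione supply was represented by 6 measured genes of 10, among them Chac1, which breaks glutathione down and was not called in any comparison. In KO 1 of 6 was called higher with TCDD and in WT 0 of 6 were called by limma. The gene was Gclc, which encodes the catalytic part of glutamate-cysteine ligase, the limiting step in making glutathione, at 12.58, 12.42 and 12.87 in KO TCDD livers, 9.91, 10.45 and 10.74 in KO corn oil livers, 12.47, 12.18 and 11.97 in WT TCDD livers, and 12.18, 11.74 and 11.13 in WT corn oil livers. KO corn oil arrays were the lowest of all 12, with a TCDD change of 2.26 ± 0.28 in KO (SE; adjusted p = 0.00219) and a difference of -1.32 ± 0.28 between KO and WT under corn oil (SE; adjusted p = 0.0473). That difference lost its call in 4 of 6 fits with 1 array left out, namely KO corn oil replicate 1 or 2 or WT corn oil replicate 1 or 2 (adjusted p up to 0.177). Without KO corn oil replicates 1 and 2 the Gclc values were 1.88 with TCDD in KO and -0.94 between genotypes under corn oil. KO TCDD livers were 0.94 ± 0.28 above WT corn oil livers (SE; adjusted p = 0.123). Sulfate and PAPS supply had 0 of 7 measured genes called by limma in any comparison, with medians of -0.07 in KO and -0.13 in WT for the TCDD change.

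Other conjugating enzymes, which transfer acetyl, methyl or amino acid groups, had 1 of 11 measured genes called with TCDD in KO and 0 of 11 in WT. Nnmt, which methylates nicotinamide, fell by 0.83 in KO (-0.83 ± 0.18, SE; adjusted p = 0.0278), with 11.72 to 12.37 in KO TCDD livers against 12.72 to 13.13 in KO corn oil livers. Hnmt, which methylates histamine, was lower in KO TCDD than in WT corn oil livers (-1.02 ± 0.19, SE; adjusted p = 0.0237). Each of these calls was lost in 4 of 6 fits with 1 array left out, Nnmt without KO TCDD replicate 1 or 3 or KO corn oil replicate 1 or 2 and Hnmt without KO TCDD replicate 1 or 3 or WT corn oil replicate 1 or 2. The Nnmt change was -0.60 without KO corn oil replicates 1 and 2. Deconjugating hydrolases had 0 of 5 and exporters of conjugates 0 of 7 measured genes called by limma in any of the 6 comparisons. Among 11 regulators measured, 3 were called higher with TCDD in KO (Nfe2l2, Ahrr and Stat5b) and 2 in WT (Nfe2l2 and Tiparp), named after their values were seen. With TCDD 0 were called lower, though Ahr itself had differences of -1.45 ± 0.38 in KO (SE, adjusted p = 0.0522) and -0.15 ± 0.38 in WT (SE). Nfe2l2 was higher by 1.94 ± 0.11 in KO and 1.02 ± 0.11 in WT (SE), the WT call being lost without any single WT TCDD array or WT corn oil replicate 2 (adjusted p up to 0.0712). In KO, Ahrr, the AhR repressor gene, was higher by 2.52 ± 0.30 (SE; adjusted p = 0.00153), and by 2.51 without KO corn oil replicates 1 and 2. Ahrr was also called higher in KO TCDD than in WT TCDD livers (2.11 ± 0.30, SE; adjusted p = 0.0202). That call was lost in 5 of 6 fits with 1 array left out (adjusted p up to 0.0925). Stat5b, a mediator of growth hormone signalling, was higher by 1.13 ± 0.20 in KO (SE; adjusted p = 0.0126). Its call was lost without KO TCDD replicate 3 (adjusted p = 0.0578), and its value was 0.63 without KO corn oil replicates 1 and 2. Tiparp was higher by 3.14 ± 0.34 in WT (SE; adjusted p = 0.00935), with its call lost without WT TCDD replicate 2 or 3 or WT corn oil replicate 2 (adjusted p up to 0.0712). Of 8 indicator genes measured, 5 were called higher with TCDD in KO and 4 in WT. The list holds AhR and NRF2 targets, and also Cyp2b10 and Cyp4a14, known as targets of other receptors. Neither Cyp2b10 nor Cyp4a14 was called in any comparison. Nqo1, which is on that list, was higher by 3.04 ± 0.25 in KO and 1.62 ± 0.25 in WT (SE; adjusted p = 0.000212 and 0.0487). Between genotypes 2 of the 8 were called higher in KO under TCDD (Nqo1 and Srxn1), 2 under corn oil (Cyp1a1 and Hmox1), and 0 were called lower. For Nqo1 under TCDD the difference was 1.52 ± 0.25 (SE; adjusted p = 0.0415). That call was lost without KO TCDD replicate 2 or 3 or WT TCDD replicate 1 or 3 (adjusted p up to 0.172). The Nqo1 call in WT was lost with any single array of that comparison left out (adjusted p up to 0.207).

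Markers of other liver cells moved with some of these comparisons. Of 8 liver endothelium markers 5 were called lower with TCDD in KO, where 3.37% of all probe sets were. The list averaged 9.02 to 9.24 on the KO TCDD arrays against 9.61 to 9.70 on the KO corn oil arrays. In WT it averaged 9.06 to 9.10 on the TCDD arrays against 9.34 to 9.55 on the corn oil arrays. The macrophage marker Marco was called lower with TCDD in KO and higher in KO than in WT under corn oil, as 1 of 7 of its list in each, and the neutrophil marker Retnlg was higher in KO under corn oil, as 1 of 4. Stellate cell markers had 1 of 7 called with TCDD in KO, and hepatocyte, cholangiocyte, lymphocyte, pericentral, periportal and male-biased lists had 0 called by limma in any comparison. For the hepatocyte list, which lay near the highest value of the data set, the lack of calls says little. All 7 female-biased genes listed were without a single-symbol probe set. In whole liver RNA, fewer cells of a type and less RNA per cell cannot be told apart, and the part of these cell types in the values of Ugt2b35 and Sult1a1 was not tested.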

How the data were processed

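Liver RNA was hybridised to Affymetrix Mouse Exon 1.0 ST arrays. The deposited log2 values were made by the authors with RMA in Affymetrix Expression Console with the build mm9, per the submitters' processing notes. Versions and the probe set level were not stated there. Values had array medians of 6.91 to 7.00, 0 columns came from other series, and the number of arrays limits the precision. Annotation gave 1 symbol to 14996 probe sets, several to 1019 and none to 7317, and all 34 members' symbols matched RefSeq (GRCm38.p6).

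Group means of all 12 arrays were modelled for 23332 probe sets with limma 3.58.1 in R 4.3.3 (8 residual and 2.19 prior degrees of freedom), with 6 contrasts. The fit was tested on simulated data with known changes and the same spread in all groups. That setting does not cover the wider spread of the KO corn oil group. Comparisons that share an arm share its arrays. Members and lists were chosen with earlier results of these data known. Named were members called in any contrast, the member with the highest mean in each family, members known for AhR, NRF2 or sex dependence, and called genes of the cofactor supply, other conjugation and transport lists. Alternatives were another empirical Bayes step, a replicate block, quantile normalization, median centring, filters on dim probe sets, a stricter threshold, averaged probe sets, fewer groups and leaving out arrays. Leaving out KO corn oil replicates 1 and 2 together was chosen after seeing the data. Ahr, Chac1, Cyp1a2, Cyp1b1, Cyp2b10 and Cyp4a14 were also named after their values were seen.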

Additional observations from a re-analysis of the deposited data

How the results depend on the processing

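Of 33 single-gene or single-probe-set calls followed through the alternatives, 21 lost their call in at least 1 of them and none changed sign. These alternatives include the fit with a lone KO corn oil array, where a lost call says little. In KO with TCDD, 2 members were called, against 1 at an adjusted p below 0.01, 1 with only the arrays of the compared groups (fewer samples), and 1 to 4 with 1 array left out. The 4 came without KO corn oil replicate 3 (Ugt2b35, Ugt2b34, Sult1a1 and Sult1e1), and the same 4 genes were called between KO and WT under corn oil there. In that comparison 1 member was called, against 0 at an adjusted p below 0.01, 0 with only the compared groups, 2 with the lowest 50% of probe sets dropped (Ugt2b34 added), and 0 to 4 with 1 array left out. For the difference between the TCDD effects 0 members were called, against 1 (Sult1a1) with the lowest 50% dropped. Without KO corn oil replicates 1 and 2, a fit that takes the lone array to vary like the other groups, the median TCDD change of the members in KO was -0.31 and that of Ugt2b34 was -0.07, opposite in sign to its 0.31 over all arrays. The cause of these changes was not tested. The other 3 counts of called members stayed at 0 throughout. The replicate numbers did not pair the arrays (18 same-number pairs, r from -0.21 to 0.11, 2 above 0.1). With the replicate block, 2 members were called in KO with TCDD and 0 between KO and WT under corn oil, where Sult1a1 had an adjusted p of 0.0861 and all probe sets called went to 0, against 457 without the block. Over all probe sets the block gave 860 calls in KO with TCDD against 1303, 15 in WT against 27, and 0 for the difference between the effects against 37. Averaging a gene's probe sets cannot change a member's value, since each has 1. Dim members limit what can be read, with 5 of 34 in the lowest 25% of probe sets (Gsto2, Gstt4, Sult1c1, Sult1e1 and Sult3a1).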
